A study of Macaca mulatta with 24 samples.

Results

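The 10 genes followed here encode hormones and markers of enteroendocrine cells: CHGA, CHGB, GCG, PYY, CCK, NTS, SST, GIP, TPH1 and NEUROD1. All probes with 1 of these symbols in the deposited normalized table were taken. That gave 9 of the 10 genes, of 16250 gene symbols on the array, since no probe carries the symbol CCK. The 9 genes have 12 of the 43603 probes. Of the 43603 probes, 36108 passed a filter on dim signals and were tested. All 12 member probes passed it and were well above background on all 24 arrays.

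The arrays are Agilent single-color Rhesus Macaque arrays, 1 for each of 24 young-adult male Rhesus macaques. Total RNA came from a piece of whole ileum after a sham procedure (unirradiated, 4 animals) or after total-body irradiation (TBI) with 6.7 Gy or 7.4 Gy of gamma rays. Per dose, ileum was taken from 4 animals at day 4, from 4 at day 7 and from 2 at day 12, and the unirradiated animals, labelled day 4, served as the controls for every day. No group carries a genetic change, and by the labels the irradiated animals differed from the controls by TBI and, on day 7 and day 12, by the day as well. The study asked how the ileum responds to TBI over time and with dose.

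Enteroendocrine cells are scattered hormone-secreting cells of the gut epithelium. They are formed in the crypts under a series of transcription factors that includes NEUROD1, store peptides in dense granules packed with granins, and release them when nutrients reach the lumen. The ileum is rich in L cells, which secrete the GCG product GLP-1 together with PYY, and in N cells, which secrete neurotensin. D cells secrete somatostatin, and enterochromaffin cells make serotonin with the enzyme TPH1. K cells, which secrete GIP, lie mainly in the upper small intestine. Several of these genes are also used by neurons of the gut wall, which are present in a whole piece of ileum, so a probe value is the sum over all cells. In bulk tissue, fewer cells of a type and less RNA in each cell cannot be told apart.

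Values are log2 signals minus the 75th percentile of the array, so 0 is the level of a probe at that percentile. The 75th percentile intensities of the 24 arrays lay between 837 and 1330, and no spot was saturated. Levels of different probes are not compared. A change is a difference between group means, tested with limma over all 36108 probes with Benjamini-Hochberg adjustment. A probe was called, and is written to have risen or fallen, when its adjusted p was under 0.05 and its change was at least 2-fold. The array probes are named by their place in brightness where a gene has several. CHGA has 3 (A_01_P1750846 the brightest, A_01_P007190 as probe 2 and A_01_P1696031 as probe 3), and TPH1 has 2 (A_01_P016279 the brighter, A_01_P1697481 as probe 2).

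The granins CHGB and CHGA, proteins of the granule core that mark endocrine cells and neurons, were the members that lay above the controls most often. In the 4 unirradiated animals the CHGB probe (A_01_P004844) read 1.07, 2.02, 1.86 and 1.62. On day 4 it read 2.94, 3.17, 3.00 and 2.49 at the higher dose (7.4 Gy) and 1.89, 2.60, 2.09 and 2.77 at the lower (6.7 Gy). All 4 animals of the higher dose lay above every control, and 3 of 4 of the lower dose did. CHGB rose 2.39-fold on day 4 after 7.4 Gy, by 1.26 on the log2 scale (SE 0.23, n = 4 and 4, adjusted p = 0.0043 by limma). After 6.7 Gy the day 4 change was 0.70 (SE 0.23, adjusted p = 0.097), which did not pass. Of the 4 controls, replicate 1 was the lowest for CHGB, and without it the change after 7.4 Gy was 1.07 (adjusted p = 0.019 by limma). The call was lost with the place of the array on its slide as a covariate (1.07, adjusted p = 0.38 by limma) and with the methods' t-test (adjusted p = 0.086).

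The 3 CHGA probes carry the same gene symbol, and whether they read the same transcripts was not tested. On day 4 they moved in the same direction with different sizes. Probe 3 read -2.93, -2.15, -2.60 and -2.04 in the controls and -1.16, -1.30, -1.14 and -1.49 on day 4 after 7.4 Gy, so the groups did not overlap. Its change was 1.15 (SE 0.29, 2.23-fold, adjusted p = 0.024 by limma), which was called. The call was lost with the place of the array on its slide as a covariate (0.74, adjusted p = 0.46 by limma) and with the methods' t-test. All 4 controls and 2 of these 4 animals were scanned on the first of 2 days, and with scan day as a block the call was lost (1.11, adjusted p = 0.055 by limma), while probe 2 gained one (1.02, adjusted p = 0.047). Within the first scan day the difference was 1.20. Probe 2 read 1.72, 2.43, 2.15 and 2.44 in the controls against 3.42, 3.27, 3.47 and 2.59. Its change of 1.0 (SE 0.26, adjusted p = 0.026 by limma) came to 1.998-fold and so just missed the fold required. The brightest probe read 3.82, 4.88, 4.25 and 4.81 in the controls against 5.59, 5.45, 5.56 and 4.78, with 1 of the 4 irradiated animals inside the range of the controls. Its change of 0.90 (SE 0.27, adjusted p = 0.052 by limma) did not pass. Without replicate 1 of the controls, which was also the lowest control on all 3 CHGA probes, none of them passed, with changes of 0.70, 0.84 and 0.99 and adjusted p of 0.18, 0.095 and 0.088 by limma.

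These were the 2 member probes called among the 12 on day 4 after 7.4 Gy, both higher, where 2.33% of all tested probes were called in either direction and 1.6% were called higher. For groups that did not overlap in that comparison, 7.84% of all tested probes lay higher and 7.91% lower. Member probes lay wholly above the controls in 3 cases (CHGB and CHGA probes 2 and 3) and wholly below in 2 (PYY and NEUROD1). On day 4 after 6.7 Gy no member probe was called, against 0.978% of all probes (with epithelial genes as the reference of each array 4 were, CHGB and the 3 CHGA probes), and 1 (CHGA probe 2) lay wholly above the controls, against 4.1%. Limma's unadjusted p was under 0.05 at 6.7 Gy for CHGB, CHGA probes 2 and 3 and PYY.

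With both doses averaged, CHGB lay above the controls by 0.98 (SE 0.20, adjusted p = 0.0066 by limma), CHGA probe 2 by 0.86 (SE 0.22, adjusted p = 0.022) and CHGA probe 3 by 0.98 (SE 0.25, adjusted p = 0.021), each under 2-fold. In that comparison 9.24% of all tested probes had an adjusted p under 0.05 and 2.06% were called, none of them a member, while with the epithelial reference the same 4 member probes were called (1.24 to 1.48). Without control replicate 1 the CHGB value was 0.79 (adjusted p = 0.040 by limma), and CHGA probes 2 and 3 no longer passed (0.70 and 0.82, adjusted p = 0.099 and 0.095).

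**Figure D1:**
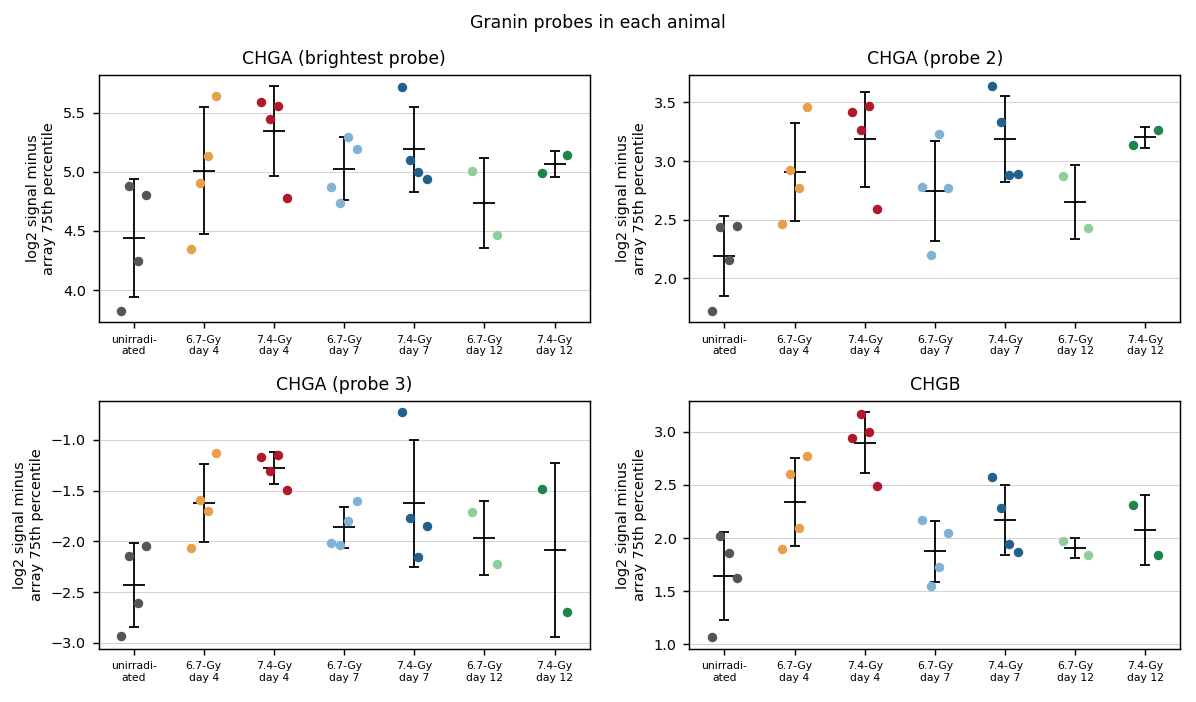
Log2 signal minus the array's 75th percentile of the 3 CHGA probes and of CHGB in each of the 24 animals (points, colored by group), with the group mean and SD (black bar; n = 4, or n = 2 on day 12). CHGB in the 4 animals on day 4 after 7.4 Gy lies between 2.49 and 3.17, above all controls, of which replicate 1 is the lowest in every panel.

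On later days CHGB lay closer to the controls, and after 7.4 Gy 2 of the 3 CHGA probes lay wholly above them, although no CHGA change on those days passed. CHGB read 2.17, 1.55, 1.73 and 2.05 on day 7 after 6.7 Gy and 2.58, 2.28, 1.95 and 1.87 on day 7 after 7.4 Gy, with changes of 0.23 (SE 0.23) and 0.53 (SE 0.23) from the controls. In each of these groups 2 of 4 animals lay above every control. The difference between days was tested directly: averaged over both doses, CHGB was lower by 0.60 on day 7 than on day 4 (log2 change -0.60, SE 0.16, adjusted p = 0.022 by limma) and by 0.63 on day 12 (log2 change -0.63, SE 0.20, adjusted p = 0.038), both under 2-fold. The arrays were scanned on 2 days, and within the first the day 7 difference was -0.86 (6 and 4 animals) against -0.07 within the second (2 and 4 animals). The day 7 animals of the second scan day had all received 7.4 Gy, so the 2 scan days differ in dose too.

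For CHGA no difference between days passed. On probe 3 the differences from day 4 were -0.30 on day 7 (SE 0.21, adjusted p = 0.35 by limma) and -0.58 on day 12 (SE 0.25, unadjusted p = 0.033, adjusted p = 0.11), the latter close in size to that of CHGB. The brightest probe differed by -0.07 on day 7 (SE 0.19, adjusted p = 0.84) and by -0.27 on day 12 (SE 0.24, adjusted p = 0.42). The day 7 differences turned between the scan days on all 3 probes, from -0.45 to 0.51 on the brightest probe, from -0.44 to 0.63 on probe 2 and from -0.59 to 0.33 on probe 3. On day 12 probe 3 differed by -0.64 within the first and by -0.51 within the second scan day. The day 12 animals of the first scan day had received 6.7 Gy and those of the second 7.4 Gy.

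Against the controls, the brightest CHGA probe read 5.72, 5.10, 5.0 and 4.94 on day 7 after 7.4 Gy and 4.99 and 5.14 on day 12, above all 4 controls in both groups. Both day 12 animals were scanned on the second day, and all 4 controls on the first. The changes were 0.75 (SE 0.27, adjusted p = 0.23 by limma) and 0.62 (SE 0.34, adjusted p = 0.69). On probe 2 they were 1.0 (SE 0.26, adjusted p = 0.069) and 1.02 (SE 0.31, adjusted p = 0.29). Probe 3 read -0.73, -1.77, -2.16 and -1.85 on day 7 and -1.48 and -2.69 on day 12, overlapping the controls on both days, with changes of 0.81 (SE 0.29, adjusted p = 0.23) and 0.34 (SE 0.36, adjusted p = 0.89). Replicate 2 of day 12, with -2.69, lay below 3 of 4 controls on probe 3 but above all 4 on the brightest probe. No member probe was called on day 7 (background 0.235% of probes after 6.7 Gy and 0.568% after 7.4 Gy) or on day 12 (0.108% and 0.0443%). CHGA probe 3 lay wholly above the controls on day 7 after 6.7 Gy (-2.02, -2.03, -1.80 and -1.60), against 4.47% of all tested probes. Among all tested probes, 3.72% on day 7 and 8.43% on day 12 lay wholly above the controls after 7.4 Gy.

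PYY, the L cell peptide that slows gut transit, had its lowest values on day 4. The probe read 0.11, -0.29, -0.17 and -0.19 in the 4 controls. On day 4 it read -0.57, -2.32, -0.20 and -1.96 after 6.7 Gy and -0.62, -2.66, -0.30 and -0.54 after 7.4 Gy. Of these 8 animals, 3 stood more than 2-fold below the rest, and the others lay at or just below the controls. The changes of -1.13 (SE 0.45, adjusted p = 0.15 by limma) and -0.89 (SE 0.45, adjusted p = 0.24) did not pass.

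On day 7 PYY read -0.08, 0.84, 0.13 and -0.50 after 6.7 Gy and 0.02, -0.31, -0.17 and -0.24 after 7.4 Gy. After 6.7 Gy 2 of 4 animals lay above every control and 1 below, and after 7.4 Gy 3 of 4 lay inside the range of the controls. On day 12 it read 0.32 and -0.10 after 6.7 Gy and 0.12 and 0.47 after 7.4 Gy. Averaged over both doses PYY rose 2.15-fold from day 4 to day 7 (log2 change 1.11, SE 0.32, adjusted p = 0.029 by limma) and was 2.54-fold higher on day 12 than on day 4 (log2 change 1.35, SE 0.39, adjusted p = 0.025). In these comparisons 1.06% and 2.75% of all tested probes were called, and PYY was the 1 member probe called in each. The first call was lost without any 1 of 5 arrays, among them each of the 3 low day 4 animals (lowest change 0.83), and the second without any 1 of the 4 arrays of day 12 (lowest change 1.24). The first was also lost with epithelial genes as the reference of each array (0.72, adjusted p = 0.044 by limma) and with normexp background correction (0.94, adjusted p = 0.024), both under 2-fold. Within scan day 1 and scan day 2 the day 7 difference was 1.36 and 0.79, and the day 12 difference was 1.47 and 1.22. As for the granins, the day 7 and day 12 animals of the 2 scan days differed in dose.

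The gene most like PYY over the 24 arrays was LOC694766, which the deposited table describes as putative peptide YY-3-like (Pearson r = 0.925, and 0.884 for deviations from the group means). It is a related sequence, and signal shared between its probe and that of PYY was not tested. It read -2.29, -3.32, -1.96 and -2.95 on day 4 after 6.7 Gy and -2.35, -2.92, -2.10 and -2.36 after 7.4 Gy, against -1.88, -2.20, -2.25 and -2.03 in the controls, and the 3 animals with low PYY were its lowest too. LOC694766 differed by 0.55 between day 7 and day 4 (SE 0.17, adjusted p = 0.042 by limma) and by 0.83 between day 12 and day 4 (SE 0.21, adjusted p = 0.013), both under 2-fold.

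GCG, which encodes proglucagon, the precursor of GLP-1 and GLP-2, moved less. It read 1.67, 1.60, 1.62 and 2.65 in the controls, 1.79, 0.51, 1.71 and 1.95 on day 4 after 6.7 Gy, and 1.65, 0.51, 1.84 and 1.40 on day 4 after 7.4 Gy. Replicate 2 of each day 4 group was the lowest, and these were also the lowest PYY animals of their groups. The day 4 changes were -0.39 (SE 0.31, adjusted p = 0.44 by limma) and -0.53 (SE 0.31, adjusted p = 0.30). Day 7 and day 12 animals read between 1.64 and 2.32, all inside the range of the controls, and the day 7 minus day 4 difference of 0.64 (SE 0.22, adjusted p = 0.056) did not pass.

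SST, the inhibitory peptide of D cells, showed the narrowest range among the hormones, from 3.16 to 4.56 over the 24 animals. It read 3.93, 3.83, 4.21 and 4.4 in the controls and 4.34, 3.16, 4.29 and 4.18 on day 4 after 7.4 Gy. The change there was -0.10 with a 95% interval from -0.58 to 0.38 on the log2 scale, and after 6.7 Gy it was -0.17 (-0.65 to 0.30). SST groups overlapped with the controls in all 6 comparisons. The replicate with the low SST value is the one with low GCG and PYY after 7.4 Gy.

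NTS, the neurotensin gene of ileal N cells, varied more between animals than between groups. The controls read 2.74, 1.94, 1.72 and 0.82, a wider range than that of any day 4 group. On day 4 it read 2.55, 2.38, 2.44 and 1.39 after 6.7 Gy and 1.36, 1.21, 1.47 and 2.14 after 7.4 Gy. The changes from the controls lay between -0.55 (7.4 Gy, day 7) and 0.40 (day 12, both doses), with adjusted p of 0.59 or more by limma. For 7.4 Gy on day 4 the 95% interval ran from -1.12 to 0.61.

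GIP, the incretin of K cells, spread over 5.07 log2 units, the widest range of the 12 probes. The controls read -1.81, -1.66, -2.70 and -3.02. On day 4 it read -1.05, -1.59, -1.25 and -2.27 after 6.7 Gy, where 3 of 4 animals lay above every control, but -5.03, -6.12, -3.17 and -2.52 after 7.4 Gy, where 3 of 4 lay below every control. The lowest of these stood close to the limit of the array, whose lowest signal well above background was at -6.72. The changes were 0.75 (SE 0.72, adjusted p = 0.53 by limma) and -1.91 (SE 0.72, adjusted p = 0.11). With scan day as a block the latter was -2.53 and was called (SE 0.71, adjusted p = 0.049 by limma). GIP was lower after 7.4 Gy than after 6.7 Gy on day 4, with no overlap between the 4 and 4 animals, by a log2 difference of -2.67 (SE 0.72, 6.36-fold). Its unadjusted p was 0.0014, but its adjusted p over all probes was 0.88 by limma. No probe at all was called in that comparison (0%), and 0.823% of all tested probes lay wholly lower after the higher dose. On day 7 GIP read -3.66, -3.63, -4.27 and -2.50 after 6.7 Gy and -5.03, -1.51, -3.41 and -4.13 after 7.4 Gy, with the same mean in both (-3.52).

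TPH1, the enzyme of serotonin synthesis in enterochromaffin cells, did not pass in any comparison. The brighter probe read 0.77, 1.06, 0.75 and 0.23 in the controls, 1.47, 1.01, 0.97 and 0.47 on day 4 after 6.7 Gy, and 0.45, 1.21, 0.98 and 1.14 after 7.4 Gy. The changes of 0.27 (95% interval -0.27 to 0.82) and 0.24 (-0.30 to 0.79) stayed under 2-fold at both ends of their intervals. Probe 2 lay between -4.85 and -3.53 over all 24 animals and changed by -0.28 and -0.08, against the direction of the brighter probe.

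NEUROD1, a transcription factor that acts late in enteroendocrine differentiation, showed small but even values. The controls read -0.80, -0.99, -0.94 and -0.98. On day 4 after 7.4 Gy it read -1.47, -1.41, -1.23 and -1.02, below all controls, and on day 12 after 7.4 Gy -0.26 and -0.35, above all controls. These day 12 animals were scanned on the second day, and all controls on the first. The changes were -0.36 (SE 0.16, adjusted p = 0.18 by limma) and 0.62 (SE 0.20, adjusted p = 0.30). With epithelial genes as the reference of each array the day 4 change turned to 0.13, and that after 6.7 Gy from -0.21 to 0.30. After 6.7 Gy it read -0.95, -1.32, -0.90 and -1.39 on day 4 and -0.42 and -0.92 on day 12. Averaged over both doses, NEUROD1 was higher by 0.73 on day 12 than on day 4 (SE 0.14, 1.66-fold, adjusted p = 0.0025), under the fold required for a call. With that reference it no longer passed (adjusted p = 0.10). Within scan day 1 that difference was 0.63 and within scan day 2 it was 0.83 (2 and 4 animals in each). The day 12 animals had received 6.7 Gy on scan day 1 and 7.4 Gy on scan day 2, so this split is also one by dose.

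**Figure D2:**
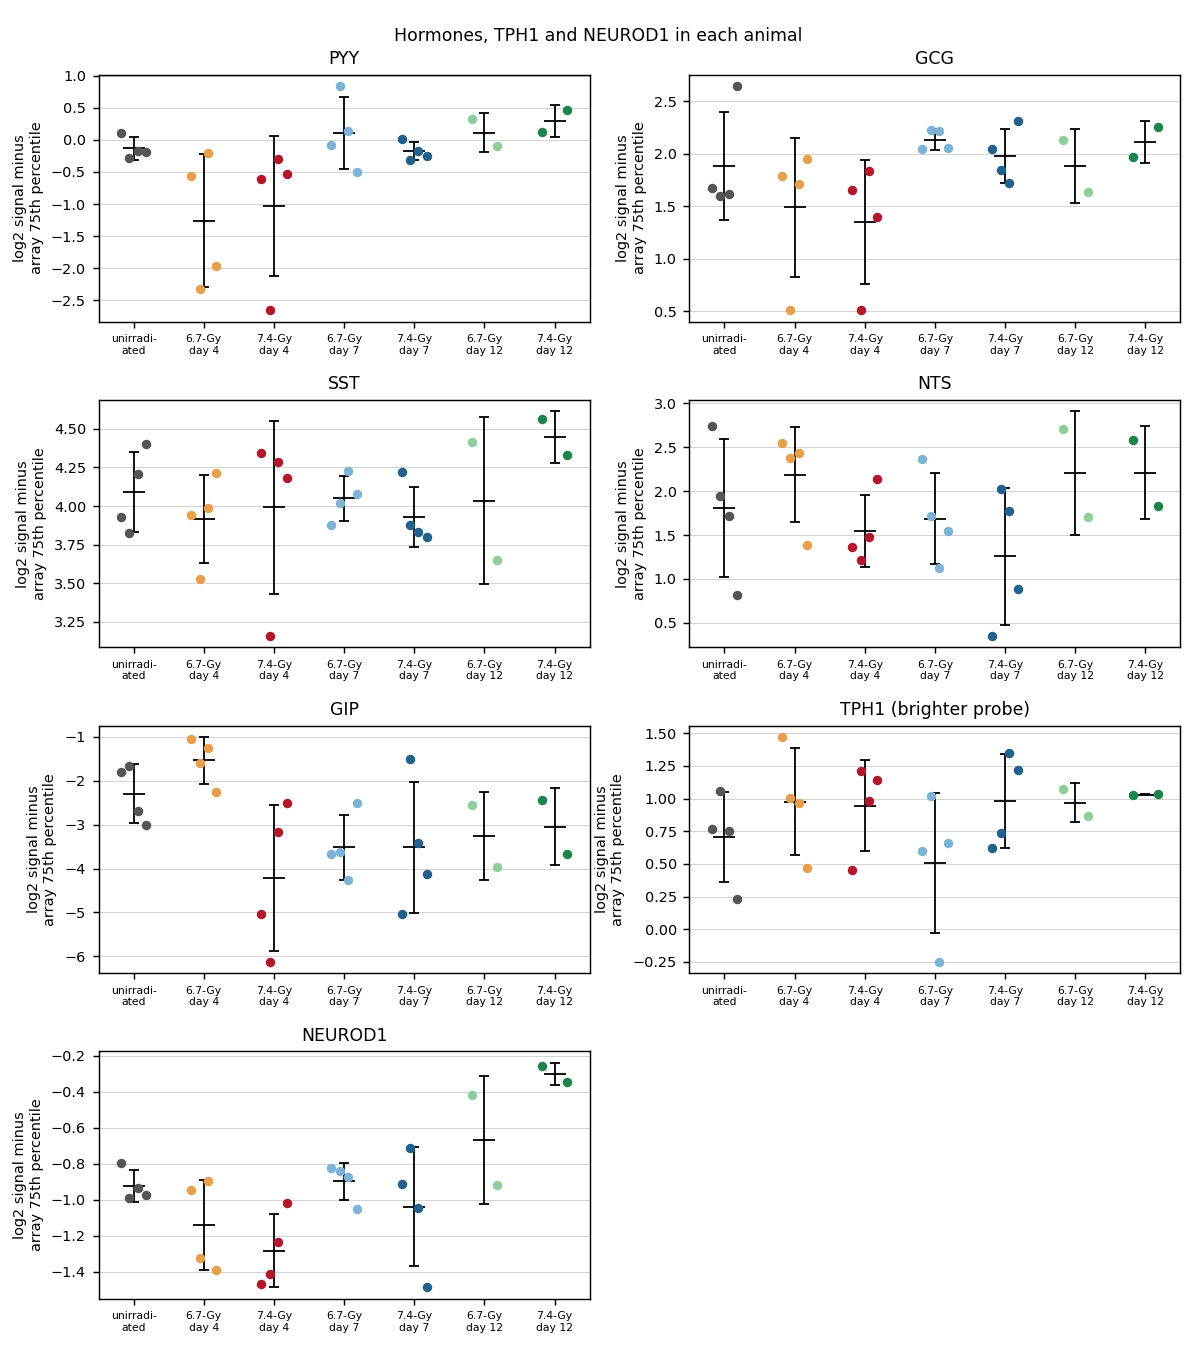
Log2 signal minus the array's 75th percentile of PYY, GCG, SST, NTS, GIP, TPH1 (brighter probe) and NEUROD1 in each of the 24 animals (points), with the group mean and SD (black bar; n = 4, or n = 2 on day 12). PYY has 3 low animals on day 4 (-2.32, -1.96 and -2.66), and GIP is the most spread, from -6.12 to -1.05.

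Counted at an adjusted p under 0.05 and any fold, 2 of the 12 member probes differed between day 7 and day 4 (CHGB lower, PYY higher) against 13.2% of all tested probes. Between day 12 and day 4, 3 of 12 differed (CHGB lower, PYY and NEUROD1 higher) against 17.5%. Both shares are near those of all probes. Between day 12 and day 7 no member differed (0.288% of all probes), and between the doses none did on day 4, day 7 or day 12 (0%, 0% and 0.00277%). At an unadjusted p under 0.05, GIP and CHGB differed between doses on day 4, CHGB with 0.56 (SE 0.23, adjusted p = 0.88 by limma). By limma's F test over the 7 groups, CHGB (adjusted p = 0.025) and NEUROD1 (adjusted p = 0.035) passed, against 8.43% of all tested probes.

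**Figure D3:**
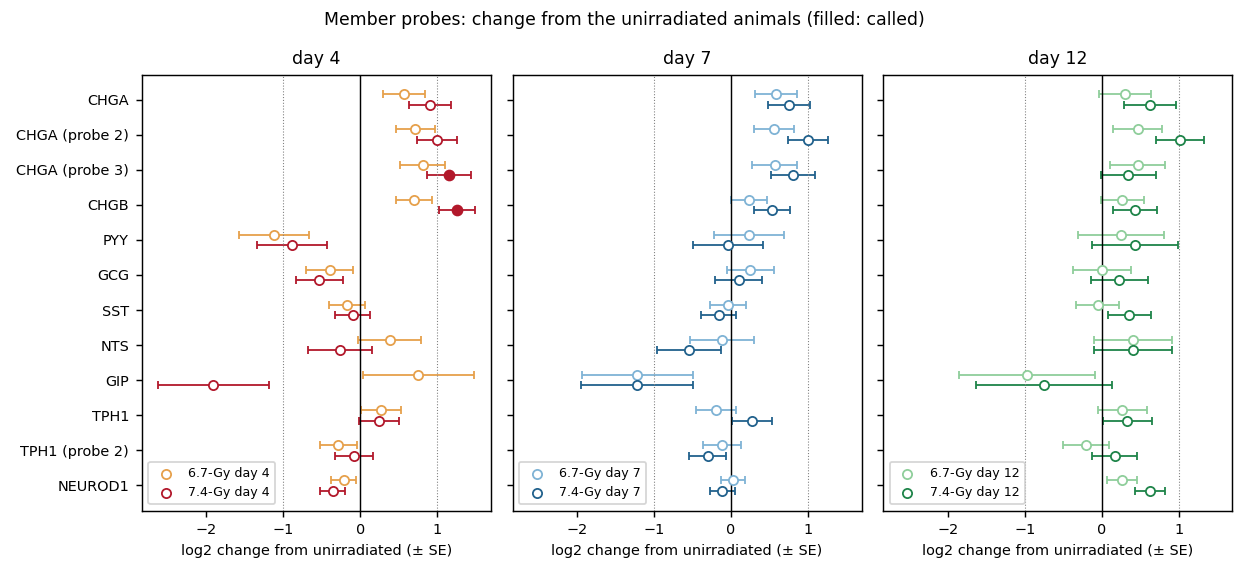
Log2 change from the unirradiated animals with its SE for the 12 member probes on day 4, day 7 and day 12 after each dose (colors), with dotted lines at 2-fold. Filled points are called probes, which are CHGB (1.26) and CHGA probe 3 (1.15) on day 4 after 7.4 Gy.

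Other genes of the enteroendocrine program were read through their brightest tested probe. Of 12 further transcription factors listed, 4 had a tested probe (FEV, LMX1A, PAX6 and RFX6). None of the 4 was called against the controls, with a median change on day 4 after 7.4 Gy of -0.21, beside -0.07 for all tested probes. PAX6 (-0.44, adjusted p = 0.15) and LMX1A (0.64, adjusted p = 0.061) were its ends by limma. Between day 12 and day 4, FEV (0.40, adjusted p = 0.028), PAX6 (0.90, adjusted p = 0.0015) and RFX6 (0.48, adjusted p = 0.020) were higher by limma, each under 2-fold. On day 12 after 7.4 Gy all 4 lay above 0, with a median of 0.58 beside -0.01 for all tested probes, and none passed. The animals of that group shared no scan day with a control. PAX6, which drives hormone genes, was also the gene most like NEUROD1 over the 24 arrays (Pearson r = 0.819, and 0.614 for deviations from the group means).

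Of 16 genes of granules and prohormone processing, 8 had a tested probe. CPE, a carboxypeptidase that trims prohormones, rose on day 4 after 7.4 Gy by 1.0 (SE 0.29, adjusted p = 0.044 by limma) and was the 1 of 8 called. Its controls read -1.49, -0.84, -0.65 and -0.22, with replicate 1 lowest, against 1.04, 0.20, -0.25 and -0.18. Without control replicate 1 none of the 8 was called, and the CPE call was lost in 16 of 24 fits with 1 array left out (lowest change 0.72, without replicate 1 of the irradiated animals). PAM, which amidates peptides, changed by 0.95 (adjusted p = 0.015 by limma), and PCSK1, the convertase that cleaves proglucagon in L cells, by 0.63 (adjusted p = 0.30). The vesicle gene RAB3C (-0.32, adjusted p = 0.78) had the lowest value, and the median of the 8 was 0.03. Between day 12 and day 4, CPE (-0.95, adjusted p = 0.016 by limma) and PAM (-0.82, adjusted p = 0.0072) were lower, while SCGN (0.53, adjusted p = 0.047) and KCNH6 (0.48, adjusted p = 0.0081) were higher.

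Of 12 other gut hormones, 8 were tested and none was called against the controls. On day 4 after 7.4 Gy their changes ran from -0.94 for MLN, which encodes motilin (adjusted p = 0.22 by limma), to 1.04 for TAC1, the substance P gene of neurons and enterochromaffin cells (adjusted p = 0.11). GHRL (ghrelin) and GAST (gastrin) had changes from -0.26 to 0.45 in the 6 comparisons with the controls, none of which passed. TAC1 was lower (-0.99, adjusted p = 0.049 by limma) and GHRL was higher (0.38, adjusted p = 0.039) on day 12 than on day 4, both under 2-fold.

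Of 9 genes that handle serotonin and other monoamines, 7 were tested. MAOA, which degrades serotonin, read 5.83, 5.54, 5.61 and 5.10 in the controls and 3.08, 5.15, 4.57 and 4.54 on day 4 after 7.4 Gy. It fell by 1.18 on day 4 after 7.4 Gy (log2 change -1.18, SE 0.35, adjusted p = 0.045 by limma) and rose by 1.18 between day 4 and day 7 (adjusted p = 0.0044). On day 12 it was higher than on day 4 by 1.31 (adjusted p = 0.0074 by limma), called in all 24 fits with 1 array left out. It was the 1 of 7 called against the controls. Replicate 1 of the irradiated animals was the lowest, and without it the day 4 change was -0.76 (adjusted p = 0.16 by limma), not called. That call was lost in 17 of 24 fits with 1 array left out, and the day 7 difference without the same animal was 0.97, under 2-fold (adjusted p = 0.0055). HTR3A, a serotonin receptor of neurons, had the highest value (1.15, adjusted p = 0.12). The serotonin transporter SLC6A4 lay below the controls in all 6 comparisons (-1.34 to -0.74), with adjusted p of 0.15 or more. DDC, which makes serotonin from the TPH1 product, changed by -0.99 (adjusted p = 0.11).

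Among 9 tested nutrient and bile acid sensors of 13 listed, none was called against the controls, and the median on day 4 after 7.4 Gy was -0.23. The ends were GPR119, a lipid receptor (-0.53, adjusted p = 0.17 by limma), and CASR, the calcium-sensing receptor (0.23, adjusted p = 0.77). FFAR2, a short-chain fatty acid receptor of L cells, was lower by less than 2-fold (-0.45, adjusted p = 0.041). Between day 12 and day 4, FFAR1 (0.71, adjusted p = 0.0021), FFAR2 (0.58, adjusted p = 0.0025) and GPR119 (adjusted p = 0.0052) were higher by limma. GPR119 was well above background on 2 of 4 arrays on day 4 after 6.7 Gy and on 3 of 4 after 7.4 Gy. No size is therefore given for its difference between days, and its -0.53 above is uncertain. None of the 10 tested receptors and hormone-degrading enzymes was called against the controls, among them GLP2R, the GLP-2 receptor (-0.22), and DPP4, which inactivates GLP-1 and GIP (-0.22). Their day 4 values after 7.4 Gy ran from -0.62 for SSTR3, a somatostatin receptor, to 0.39 for NPY1R, a receptor of neuropeptide Y and PYY. In that group SSTR3 and NPY1R were each well above background on 3 of 4 arrays and NPY2R on 1 of 4, so these ends are uncertain. Between day 4 and day 12 NPY1R was called lower (adjusted p = 0.037 by limma). It was well above background on 5 of 8 arrays of day 4 and on 0 of 4 of day 12, so the 2-fold of this call rests on signals below background. With day 12 values raised to the lowest signal well above background of each array, NPY1R was lower by at least 1.37-fold. Only the control group had it well above background on all its arrays, so NPY1R passed the filter through that group. The call was lost without either of 2 day 12 arrays (adjusted p = 0.19 and 0.18) and in 6 of 24 fits with 1 array left out.

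**Figure D4:**
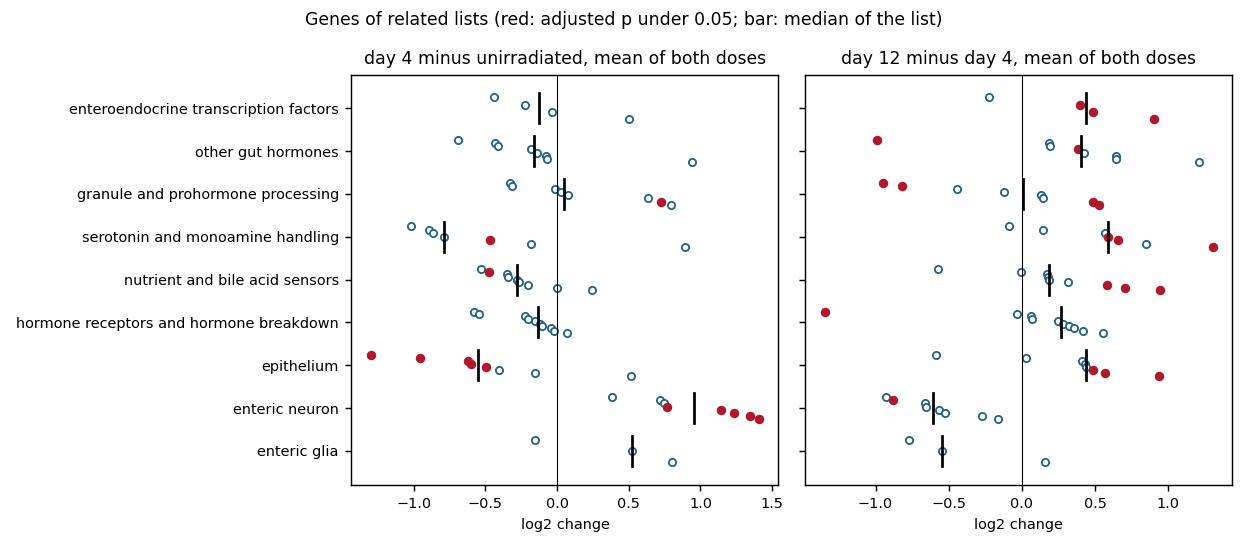
Log2 changes of the tested genes of 9 related lists (points, 1 gene each; red where adjusted p is under 0.05) with the median of each list (black bar), for day 4 minus unirradiated and for day 12 minus day 4, each averaged over both doses. On day 4 the 8 enteric neuron genes all lie above 0, with a median of 0.96, and 7 of 8 epithelial genes lie below it.

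Some markers of other cell types of the ileal wall were called on day 4 beside the members. With both doses averaged, 4 of 8 neuron genes were called higher, and 1 of 8 epithelial, 3 of 6 B and plasma cell and 1 of 4 tuft cell genes were called lower. In that comparison 2.06% of all tested probes were called. With 1 array left out the neuron changes fell as low as 0.68 (ELAVL4), 0.97 (NEFL), 0.82 (SNAP25) and 0.88 (VIP), under 2-fold. Their calls were lost in 2, 1, 6 and 16 of 24 fits. Of 4 tested goblet cell genes, AGR2 (-1.37, adjusted p = 0.0029 by limma) and CLCA1 (-1.15, adjusted p = 0.0077) were called lower in all 24 fits. MUC2 and ZG16 were not called. Of 15 listed genes of enteric neurons 8 were tested, and 4 of 8 were called higher on day 4 after 7.4 Gy (ELAVL4, NEFL, NEFM and SNAP25, by 1.22 to 1.62), with a median of 1.32. The summed level of a list is the log2 of its added signals, so its brightest genes weigh most, here TUBB3 and PRPH, neither of them called. For the 8 it ranged from 2.83 to 3.23 in the controls and on later days from 3.10 to 3.49. On day 4 it ranged from 3.5 to 3.76 after 7.4 Gy and from 3.32 to 3.86 after 6.7 Gy. Control replicate 1, lowest for the granins, was also lowest for ELAVL4, NEFL and SNAP25, and without it 1 of the 8 (NEFM) was called and the median was 0.85. The ELAVL4 call was lost in 17 of 24 fits with 1 array left out, and SNAP25 was well above background on 3 of the 4 control arrays. Control replicate 1 also stood apart in smooth muscle: the mean level of 4 tested smooth muscle genes was 4.46 in it, against 6.71, 6.61 and 6.49 in the other controls and 6.49 to 7.02 on day 4 after 7.4 Gy. None of the 4 was called, and their median change there was 0.64 with and 0.15 without that animal. The part of muscle layer in the granin values was not tested. Over the 24 animals, deviations of CHGB from its group means followed those of the mean neuron level with r = 0.557 and rho = 0.427. The p values of a permutation test within groups were 0.045 and 0.090, and 0.27 and 0.38 after adjustment over 180 member and list pairs (9 members and 20 lists). Without the 2 arrays farthest from the median r was 0.374, and it was 0.625 and 0.436 within the 2 scan days. The part of neuron RNA in the granin values was not tested.

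Of 11 listed epithelial genes 8 were tested, and VIL1, a brush border protein, fell on day 4 at both doses (log2 change -1.32 and -1.27, adjusted p = 0.0011 and 0.00085 by limma), as did KRT20 after 6.7 Gy (-1.05, adjusted p = 0.015). Without control replicate 1, its highest control, the KRT20 change was -0.85 (adjusted p = 0.050 by limma) and was not called, while VIL1 was called in all 24 fits with 1 array left out. KRT18 lay above the controls by 0.47 and 0.55 (adjusted p = 0.33 and 0.26 by limma). The summed level of the 8 ranged from 7.07 to 7.79 in the controls, from 6.40 to 7.08 on day 4 after 6.7 Gy and from 6.69 to 6.96 on day 4 after 7.4 Gy. Deviations of PYY from the group means followed those of the mean epithelial level with r = 0.662 (permutation p = 0.00024, adjusted over the 180 pairs 0.042) and rho = 0.689 (p = 0.0025, adjusted 0.13). Without the 2 farthest arrays r was 0.554, and it was 0.610 and 0.780 within the 2 scan days. The part of epithelial RNA content in the PYY values was not tested. Of the 180 pairs 3 passed for r and none for rho. The others were CHGA with 3 Paneth cell genes (r = 0.773, adjusted p = 0.047 by permutation, rho = 0.722) and TPH1 with 5 genes of absorptive enterocytes (r = 0.721, adjusted p = 0.042 by permutation, rho = 0.651). Without the 2 farthest arrays these r were 0.657 and 0.644, and within the scan days 0.673 and 0.928 for CHGA and 0.709 and 0.792 for TPH1. FABP2, 1 of the 5 enterocyte genes, was well above background on 10 of 24 arrays. With only genes well above background on all arrays, the TPH1 pair no longer passed (r = 0.593, adjusted p = 0.14 by permutation), nor did that of CHGA (r = 0.773, adjusted p = 0.070), and PYY with epithelium was the 1 pair that passed for r (0.662, adjusted p = 0.043).

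Of 6 tested genes of B and plasma cells, 3 were called lower on day 4 with both doses averaged. CD79B, a chain of the B cell receptor, changed by -1.27 (adjusted p = 0.0053 by limma), MZB1 of plasma cells by -1.90 (adjusted p = 0.034) and TNFRSF17 of plasma cells by -1.66 (adjusted p = 0.043), with a list median of -1.46. That median includes MS4A1, which was well above background on 1 of 4 arrays on day 4 after 6.7 Gy and on 0 of 4 after 7.4 Gy. The TNFRSF17 call was lost in 15 and the MZB1 call in 5 of 24 fits with 1 array left out, and without control replicate 4 MZB1 was at -1.09 (adjusted p = 0.12 by limma) and CD79B at -0.91 (adjusted p = 0.016), under 2-fold. The summed level of the 6, in which JCHAIN weighs most, ranged from 3.31 to 5.10 in the controls. On day 4 it ranged from 3.28 to 3.73 after 6.7 Gy and from 2.98 to 3.58 after 7.4 Gy. Of 4 tested tuft cell genes GFI1B was called lower with both doses averaged (-1.19, adjusted p = 0.013 by limma), at -0.96 without control replicate 4, under 2-fold, and the summed level of the 4 ranged from 0.60 to 1.17 in the controls, from 0.37 to 0.67 after 6.7 Gy and from 0.18 to 0.83 after 7.4 Gy, overlapping the controls at both doses. DCLK1, another of the 4, had a change of 0.18 (adjusted p = 0.69), and TRPM5 weighs most in their summed level. Of 5 tested genes of absorptive enterocytes FABP1, a fatty acid carrier, was called lower (-1.07, adjusted p = 0.012 by limma), and without control replicate 1 none of the 5 was. ANPEP averaged 6.43 in the controls, 5.95 on day 4 after 6.7 Gy and 6.42 after 7.4 Gy. For APOB these means were 4.97, 4.92 and 5.27, and for MTTP 3.68, 3.81 and 3.68. FABP2, well above background on 10 of 24 arrays, had means of -8.20, -6.18 and -7.30. The part of these cells in the member values was not tested.

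Among the members themselves, 36 pairs were compared by their deviations from the group means over the 24 animals, and 3 passed for r after adjustment over the 36. GIP and NTS had r = 0.716 (permutation p = 0.0002, adjusted 0.0072) and rho = 0.743 (p = 0.00023, adjusted 0.0083), with r = 0.708 without the 2 farthest arrays and 0.607 and 0.899 within the 2 scan days. GCG and SST had r = 0.776 (p = 0.0025, adjusted 0.032) and rho = 0.688 (p = 0.0038, adjusted 0.042), with r = 0.636 without the 2 farthest arrays and 0.820 and 0.766 within the scan days. CHGA and CHGB had r = 0.697 (p = 0.0027, adjusted 0.032), but for rho of 0.626 the adjusted p was 0.051. Without the 2 farthest arrays their r was 0.605, and within the scan days it was 0.661 and 0.788. By rho 4 pairs passed, GIP with NTS and GCG with SST among them. The other 2 did not pass for r: CHGB and PYY had rho = -0.654 (adjusted p = 0.042 by permutation) and r = -0.573 (adjusted p = 0.087), and NEUROD1 and NTS had rho = 0.637 (adjusted p = 0.042 by permutation) and r = 0.569 (adjusted p = 0.087). Without the 2 farthest arrays r was -0.554 and 0.525, and within the scan days -0.595 and -0.557 for the first and 0.620 and 0.414 for the second. GCG and PYY, both products of L cells, had r = 0.617 (adjusted p = 0.10 by permutation) and rho = 0.483, and did not pass.

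**Figure D5:**
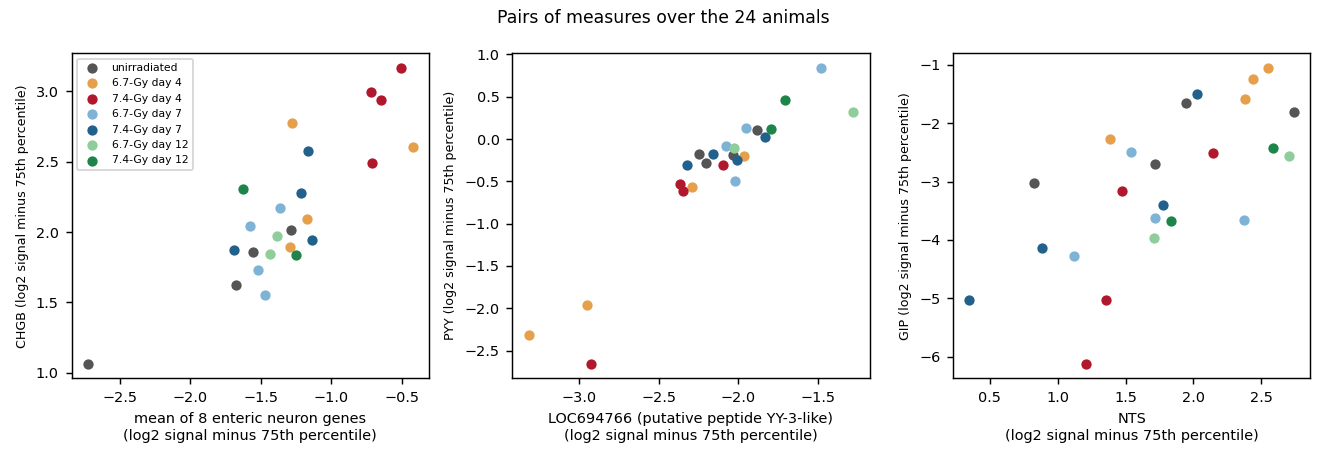
Log2 signals minus the array's 75th percentile over the 24 animals (points, colored by group) of CHGB against the mean of 8 enteric neuron genes, of PYY against LOC694766 and of GIP against NTS. Unirradiated replicate 1 lies at the lower left for CHGB, and the 3 animals with the lowest PYY are also the 3 lowest for LOC694766.

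The genes whose pattern was most like each of the other members over the 24 arrays were ranked by Pearson r. For CHGA they were ANKS6 (0.809), POGK (0.762) and BCAP29 (0.732), and for CHGB FBN1, which encodes fibrillin-1 of the extracellular matrix (0.890), LOC708234 (0.885) and LOC699691 (0.860). For GCG they were TPD52 (0.812), CEP55 (0.791) and NDUFA10 (0.770), and for SST S100P (0.696), LOC702488 (0.660) and SCAF4 (0.643). NTS was most like CAB39 (0.734), GPA33 (0.731) and SH3RF1 (0.711), and GIP was most like SMG8 (0.643), PTPN4 (0.630) and WNT9B (0.620). TPH1 was most like ABCC8, a subunit of the potassium channel of hormone-secreting cells (0.677), ZNF7 (0.675) and PTMS (0.659). After PAX6, NEUROD1 was most like CORO2A (0.818) and NCOA2 (0.806), and after LOC694766, PYY was most like B3GNT5 (0.745) and FGFBP1 (0.744). These are the highest of 14232 genes in each case, on arrays that share their scaling, and are given as descriptions.

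The place of an array on its slide moved with the groups. All 4 controls and 2 of the 4 animals on day 4 after 6.7 Gy were on position 1. All 4 animals on day 4 after 7.4 Gy were on position 2, with the other 2 of the lower dose, and this shared position alone links that group to the controls. No animal of day 7 or day 12 shared a position with a control, so for those days position and irradiation cannot be told apart. The day 12 animals after 7.4 Gy shared no scan day with a control either. Nor did any animal of day 4 share a position with one of day 7 or day 12, so the differences of PYY, CHGB and NEUROD1 between day 4 and later days cannot be told apart from position either. Within position 1 (2 irradiated animals and 4 controls), CHGB was higher on day 4 after 6.7 Gy than in the controls by 0.61. CHGA was higher by 0.19, 0.50 and 0.60 on its brightest probe and probes 2 and 3, and PYY was lower (difference -1.31). These 2 irradiated animals were scanned on the second day and all 4 controls on the first, so scan day and irradiation cannot be told apart there. With position as a covariate the CHGB change on day 4 after 7.4 Gy was 1.07 (adjusted p = 0.38 by limma) and that of CHGA probe 3 was 0.74 (adjusted p = 0.46), so both calls were lost. In the same fit 20 of all probes were called, against 842 without the covariate. Within the slides that held both groups, CHGB was higher on day 4 after 7.4 Gy by 1.08 and 1.54. Each of these slides held 1 control, on position 1, and 1 such animal, on position 2, so these differences cannot be told apart from position.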

How the data were processed

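Total RNA of 24 ileum samples was hybridised by the authors to single-color Agilent Rhesus Macaque arrays, 1 array per animal. Per the file headers, intensity values were background-subtracted and spatially detrended by Agilent Feature Extraction 11.0.1.1, with no scaling between arrays. The authors' deposited normalized table holds log2 values shifted to the 75th percentile, with each probe centred on its median over the 24 arrays as the values show. The authors left out RNA of low integrity.

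Here, log2 of the processed signal minus the 75th percentile of each array was fitted with limma 3.58.1 (R 4.3.3) with 7 group means over all 24 arrays (17 residual degrees of freedom). Outlier spots were left out and spots of a probe averaged. A probe was tested when 1 group or more had it well above background on all its arrays. P values were Benjamini-Hochberg adjusted within each of 15 comparisons, and a call needed an adjusted p under 0.05 and 2-fold. The fit was tested on simulated data.

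Samples were grouped by the labels. 1 label protocol gives another last day than the titles and day fields, and day 12 was used. Nothing ties samples to litters or batches beyond slide (6 slides), position and scan day. Each array is a separate animal, and precision is limited by how many arrays a group has. Of all probes, 23758 carried a symbol, and 8317 matched a RefSeq accession. All member probes were named. A gene with several probes is represented by the brightest, and the other genes named are those called in the enteroendocrine lists, the ends of each list and the 3 genes most like each member. Members and lists were chosen with earlier results of these data known. Correlations of deviations between animals ranged from -0.26 to 0.36 (median 0.03) for the same replicate number and from -0.36 to 0.27 (median -0.01) for different numbers, so the numbers were not taken to pair animals. The median was 0.07 within a slide and -0.02 between slides. Correlations used 100000 permutations within groups. Alternatives covered scaling, background correction, dim-probe filters, moderation, the methods' t-test, slide, position, scan day, replicate number and each array left out. Scan day, the arrays left out for other list genes and the tests of all 20 lists, also without dim genes, were chosen after seeing the data. Samples of other tissues were not analysed here, and 2 list genes are not reported here and were left out of every list value.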

Additional observations from a re-analysis of the deposited data

Results flagged for a closer look

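Values of 6 probes and groups stood apart within their group of 4, where the gap to the nearest animal passed Dixon's critical value for 4 samples. GCG was high in unirradiated replicate 4 (2.65) and low in replicate 2 on day 4 after 6.7 Gy (0.51). On day 4 after 7.4 Gy, replicate 2 was low for PYY (-2.66) and for SST (3.16). NTS was low in replicate 4 on day 4 after 6.7 Gy (1.39), and TPH1 probe 2 was low in unirradiated replicate 1 (-4.23). These are 6 of 60 groups examined, where chance gives about 1 in 20, or 3 of 60.

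The difference between days, averaged over both doses and tested by limma, passed the adjusted p threshold for 3 members. CHGB was lower on day 7 than on day 4 (-0.60) and lower on day 12 than on day 4 (-0.63). PYY was higher on day 7 (1.11) and on day 12 (1.35) than on day 4. NEUROD1 was higher on day 12 than on day 4 (0.73).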

How the results depend on the processing

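Of 84 log2 changes of member probes, 63 kept their direction under each setting that keeps all arrays and was run for them (11 to 14 settings per change), 21 reversed under at least 1, and 17 reversed when 1 of the 24 arrays was left out. None of those that reversed was called. The causes were not tested. Few arrays limit every value, most of all on day 12.

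The number of member probes called on day 4 after 7.4 Gy, 2, became 4 with epithelial genes as the reference of each array or with quantile normalization, 1 with normexp background correction or slide as a fixed block, and 0 with the methods' t-test or with position as a covariate, and it ranged from 1 to 4 with 1 array left out. After 6.7 Gy it went from 0 to 4 with the epithelial reference. For both doses on day 4 it went from 0 to 4 with that reference and to 1 with quantile normalization, and ranged from 0 to 2 with 1 array left out. The single call between day 7 and day 4 became 0 with the epithelial reference or normexp, and with 1 array left out it ranged from 0 to 1, as did the single call between day 12 and day 4. All probes called on day 4 after 7.4 Gy, 842, ranged from 20 (position) to 3113 (epithelial reference) and from 362 to 1004 with 1 array left out. With scan day as a block, a setting chosen after seeing the data, the CHGA probe 3 call was lost and CHGA probe 2 and GIP were called. The epithelial reference used 4 of 6 planned genes, and normexp used median signals. With the replicate block, which pairs animals by number alone, CHGB on day 4 after 7.4 Gy gave 1.26 (adjusted p = 0.0092), and counts of member calls stayed at 2, 1 and 1.

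With the epithelial reference, reversed changes on day 4 were 0.12 for GCG, 0.30 for NEUROD1, 0.34 for SST and 0.23 for TPH1 probe 2 after 6.7 Gy, and 0.13 for NEUROD1, 0.23 for NTS, 0.39 for SST and 0.41 for TPH1 probe 2 after 7.4 Gy. On day 7 they were 0.055 for SST after 6.7 Gy, and 0.026 for NEUROD1 and 0.097 for PYY after 7.4 Gy. With normexp they were -0.0044 for NEUROD1 and 0.0013 for TPH1 probe 2 (6.7 Gy, day 7), 0.0011 for PYY (7.4 Gy, day 7), 0.011 for SST (7.4 Gy, day 4) and 0.0081 for TPH1 probe 2 (6.7 Gy, day 12). Position gave 0.29 for NTS (7.4 Gy, day 4). Quantile normalization gave 0.014 for GCG (6.7 Gy, day 12) and 0.012 for SST (7.4 Gy, day 4). The replicate block gave 0.18 for GCG and 0.068 for SST (6.7 Gy, day 12). Slide as a fixed block gave 0.021 for GCG (6.7 Gy, day 12), -0.15 for GIP and -0.023 for NTS (6.7 Gy, day 4) and -0.032 for NTS (7.4 Gy, day 12), and as a random block 0.0057 for GCG (6.7 Gy, day 12). The mean of both TPH1 probes gave -0.0053 (6.7 Gy, day 4) and -0.014 (7.4 Gy, day 7).

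With 1 array left out, reversed changes on day 4 after 7.4 Gy ranged from -0.59 to 0.052 for NTS, from -0.22 to 0.18 for SST and from -0.17 to 0.038 for TPH1 probe 2. On day 7 after 6.7 Gy they ranged from -0.45 to 0.19 for NTS, -0.011 to 0.43 for PYY, -0.13 to 0.062 for SST, -0.37 to 0.056 for TPH1 and -0.29 to 0.018 for TPH1 probe 2, and after 7.4 Gy from -0.014 to 0.35 for GCG, -0.22 to 0.036 for NEUROD1 and -0.11 to 0.040 for PYY. On day 12 after 6.7 Gy they ranged from -0.25 to 0.25 for GCG, -0.10 to 0.90 for NTS, -0.44 to 0.33 for SST and -0.82 to 0.40 for TPH1 probe 2, and after 7.4 Gy from -0.26 to 0.95 for CHGA probe 3 and -0.17 to 0.50 for TPH1 probe 2.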

Other observations

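Other secretory cells of the epithelium gave these values on day 4 after 7.4 Gy. Of 4 tested goblet cell genes, AGR2, a chaperone of mucin folding, fell by 1.61 (log2 change -1.61, adjusted p = 0.0032 by limma) and CLCA1, a mucus protein, fell by 1.08 (log2 change -1.08, adjusted p = 0.028). The CLCA1 call was lost in 6 of 24 fits with 1 array left out, among them that without control replicate 1 (adjusted p = 0.050) and that without replicate 2 of the irradiated animals (log2 change -0.90, adjusted p = 0.070), while AGR2 was called in all 24. Of the other goblet cell genes, MUC2, the main gel-forming mucin, had a change of 0.29 (adjusted p = 0.60). None of the 3 tested Paneth cell genes passed, with LYZ at 0.43 (adjusted p = 0.41). None of 9 tested mast cell genes passed there. Mast cells can also hold TPH1 RNA. The 9 changes ran from -1.10 for FCER1A (adjusted p = 0.17) to 0.57 for GATA2 (adjusted p = 0.29), with 5 above and 4 below 0. Between day 12 and day 4, 2 of the 9 were called, both lower, and 6 lay below and 3 above 0. FCER1A (-1.62, adjusted p = 0.014) and GATA2 (-1.09, adjusted p = 0.013) fell by limma, with the FCER1A call lost in 2 and the GATA2 call in 3 of 24 fits with 1 array left out. SLC51B, which exports bile acids from ileal enterocytes, rose by 1.51 (adjusted p = 0.0037).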
